A study of Mus musculus with 6 samples.

Results

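The genes described are 8 transcription factors of the macrophage lineage, namely Spi1, Cebpa, Cebpb, Maf, Runx1, Klf4, Zeb2 and Bhlhe40. They were listed by gene symbol, with no threshold on their values but with earlier results of these data known, and are 8 of the 22377 genes in the count table. All 8 were among the 13884 genes that passed the filter on low counts, and the lowest count of a member in any library was 1701.

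Macrophages are phagocytes of the innate immune system that form from fetal progenitors or from blood monocytes. Their identity is set by a small group of lineage factors that open enhancers, keep genes such as the receptor Csf1r active and repress the programs of other blood cells. PU.1, encoded by Spi1, and the C/EBP proteins bind many of these enhancers side by side, and the remaining factors act with them or restrain alternative fates. In tumors, the macrophages are known as tumor-associated macrophages (TAMs), and they continue to express these factors.

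The libraries came from mice carrying subcutaneous tumors of Lewis lung carcinoma (LLC) cells, a mouse lung cancer line. Per the study's methods, the groups were Npm1+/+ and Npm1+/- mice and the material was macrophages gated as CD45+ CD11b+ F4/80+ by flow cytometry. Npm1 encodes nucleophosmin, a nucleolar chaperone, and the heterozygous allele is carried in every tissue of the animal, so the model is not restricted to macrophages. The labels name the groups wt (n = 3) and ko (n = 3), with knockdown as the treatment of the latter, and give neither genotype, age nor sex per library. They also describe whole tumor tissue, TRIzol and a small RNA protocol, which differs from the sorting, column extraction and low-input cDNA kit of the methods. Replicates are labelled as separate biological samples, although a heatmap of these data in the study shows fewer mice per group than the libraries analysed here. Below, wt1 to wt3 and ko1 to ko3 stand for the libraries under those labels.

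The libraries held between 36550775 and 38147320 counts, so that 3 counts, the limit set by a count of 0, correspond to 0.0716 to 0.0846 CPM (TMM-scaled counts relative to library size), a limit for counting error only. Npm1 was measured at 142, 380 and 381 CPM in wt1, wt2 and wt3 and at 441, 499 and 343 CPM in ko1, ko2 and ko3. It was therefore not lower in the libraries labelled ko (log2 fold change 0.51, SE 0.36, edgeR quasi-likelihood adjusted p = 0.436), and each direction below refers to the label. Library wt1 stood apart from the others, at -108.5 on a first principal component holding 68.0% of the variance, against -4.54 to 52.0 for the other 5. Values without wt1 are given beside the results for the members, their ratios and the gene lists. For most cell type lists the median is given in that way. In bulk RNA, fewer cells of a type and less RNA per cell cannot be told apart.

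Spi1 encodes PU.1, the ETS-family factor needed for the formation of macrophages. Its level was 441, 302 and 280 CPM in wt1, wt2 and wt3 and 206, 159 and 246 CPM in ko1, ko2 and ko3. Every ko library lay below every wt library. The mean was 341 ± 87.2 CPM in wt and 203 ± 43.7 CPM in ko (SD, n = 3 each). This is a log2 fold change of -0.75 (SE 0.23, 95% confidence interval -1.27 to -0.22), which missed the threshold of 0.05 after adjustment over all genes (edgeR quasi-likelihood test with Benjamini-Hochberg adjustment, adjusted p = 0.328). Without wt1 the log2 fold change was -0.52. The gene (NCBI Gene 20375) spans chr2:91082390-91115756 on the plus strand of GRCm38, and no other annotated gene overlaps it.

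Cebpb encodes C/EBPβ, a basic leucine zipper (bZIP) factor of monocyte survival and of the response to inflammatory and lipopolysaccharide signals. Per length, in FPKM (counts divided by gene length and library total), it had the highest level of the 8 genes in both groups. Its level was 1772, 1168 and 1098 CPM in wt1, wt2 and wt3 and 774, 529 and 989 CPM in ko1, ko2 and ko3. The groups did not overlap, and ko3 lay closest to the wt libraries. The mean was 1346 ± 371 CPM in wt and 764 ± 230 CPM in ko, and the log2 fold change was -0.82 (SE 0.28, 95% confidence interval -1.46 to -0.17, edgeR adjusted p = 0.328). Without wt1 it was -0.57. Spi1 and Cebpb ranked the 6 libraries in the same order, from wt1 at the top through wt2, wt3, ko3 and ko1 to ko2 at the bottom. Some macrophage markers, among them Csf1r, Cd68 and Ctss but not Cd14, had this order too, so it was not particular to this pair.

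Cebpa encodes C/EBPα, the bZIP factor with which progenitors enter the granulocyte and monocyte lineage. Its level was 74.3, 61.7 and 49.1 CPM in wt1, wt2 and wt3 and 51.9, 40.6 and 47.5 CPM in ko1, ko2 and ko3. The groups overlapped, since ko1 was above wt3. The log2 fold change was -0.40 (SE 0.18, 95% confidence interval -0.82 to 0.012, edgeR adjusted p = 0.329), and without wt1 it was -0.25.

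The promoters of the C/EBP genes are shown because these members share a protein family and differ greatly in level. Both genes are short, and Cebpb (NCBI Gene 12608, chr2:167688915-167690418, plus strand) has a single exon, while Cebpa (NCBI Gene 12606) lies at chr7:35119293-35121928 on the plus strand. The 250 bases before each start site are taken from RefSeq on GRCm38.p6, which held promoters for 5 of the 8 members, and are written 5′ to 3′. They span chr2:167688665-167688914 for Cebpb and chr7:35119043-35119292 for Cebpa. Capitals mark TGACG, a half-site of the CREB and AP-1 families, on either strand in Cebpb, though windows of Klf4 and Zeb2 hold it too, and the TATA box TATAAA in Cebpa.
Cebpb: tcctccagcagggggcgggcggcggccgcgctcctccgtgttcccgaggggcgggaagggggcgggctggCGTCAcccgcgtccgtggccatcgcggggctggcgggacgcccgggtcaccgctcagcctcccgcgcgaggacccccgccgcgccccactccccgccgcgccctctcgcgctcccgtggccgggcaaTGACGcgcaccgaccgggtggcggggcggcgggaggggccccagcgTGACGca
Cebpa: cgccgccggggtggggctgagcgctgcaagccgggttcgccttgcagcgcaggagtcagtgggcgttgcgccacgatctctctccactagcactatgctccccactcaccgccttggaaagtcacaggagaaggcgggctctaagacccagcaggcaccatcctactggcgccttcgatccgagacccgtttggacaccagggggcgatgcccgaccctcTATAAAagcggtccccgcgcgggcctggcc
The Cebpb window was 81.6% G and C and held TGACG at 3 places, the closest of them 7 to 3 bases before the start. The Cebpa window was 66.4% G and C and held TATAAA 30 to 25 bases before the start. Of all 32851 promoters of that length in the table, 17.8% held TGACG and 12.4% held TATAAA on either strand. The search covered both strands and 5 further motifs in the 9 windows of the 5 members. The C/EBP site TTGCNNAA was found in a Zeb2 window (9.56% of all promoters). The PU.1 core GAGGAA was found in Runx1 and Zeb2 (23.3%), and the E-box CACGTG in Klf4 and Runx1 (6.02%). The RUNX site TGTGGT (14.0%) and the STAT site TTCCNGGAA (0.913%) were in 0 of the 9 windows. A match is a description of letters and was not tied to binding in these cells.

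Maf encodes c-Maf, a bZIP factor that activates Il10 and restrains the self-renewal of macrophages. Its level was 81.2, 76.1 and 99.0 CPM in wt1, wt2 and wt3 and 53.0, 62.1 and 74.2 CPM in ko1, ko2 and ko3. Every ko library was below every wt library, by a narrow margin between ko3 and wt2. The mean was 85.4 ± 12.1 CPM in wt and 63.1 ± 10.7 CPM in ko, and the log2 fold change was -0.44 (SE 0.17, 95% confidence interval -0.82 to -0.052, edgeR adjusted p = 0.328). Without wt1 it was -0.48. In Maf, unlike Spi1 and Cebpb, the highest library was wt3 and the lowest ko1. Maf (NCBI Gene 17132) lies at chr8:115682942-115707794 on the minus strand.

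Runx1, Klf4 and Zeb2 had overlapping groups. Runx1, the Runt-domain factor of blood stem cell emergence that pairs with Cbfb, was at 142, 147 and 106 CPM in wt1, wt2 and wt3 and at 125, 122 and 118 CPM in ko1, ko2 and ko3. All ko values of Runx1 lay inside the wt range (log2 fold change -0.12, 95% confidence interval -0.46 to 0.23, and -0.061 without wt1). Klf4, a zinc finger factor of monocyte differentiation, was at 223, 172 and 166 CPM in wt1, wt2 and wt3 and at 184, 155 and 201 CPM in ko1, ko2 and ko3. Its log2 fold change was -0.056, with an interval from -0.43 to 0.32, and without wt1 it was 0.085. Zeb2, a zinc finger repressor that maintains the tissue identity of resident macrophages, was at 361, 570 and 602 CPM in wt1, wt2 and wt3 and at 612, 555 and 635 CPM in ko1, ko2 and ko3. Libraries wt2 and wt3 lay inside the ko range and wt1 below it. The log2 fold change of 0.23 (95% confidence interval -0.24 to 0.71) was 0.032 without that library. The edgeR adjusted p was 0.652 for Runx1, 0.852 for Klf4 and 0.509 for Zeb2. These intervals still allow changes of moderate size in either direction. Runx1 (NCBI Gene 12394) spans chr16:92601466-92826149, Klf4 (NCBI Gene 16600) chr4:55527143-55532466 and Zeb2 (NCBI Gene 24136) chr2:44983632-45117395, each on the minus strand.

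Bhlhe40, a basic helix-loop-helix repressor that limits Il10 and takes part in macrophage proliferation, had the lowest fitted biological variation of the members, at a coefficient of variation of 0.125 over both groups. Its level was 827, 882 and 815 CPM in wt1, wt2 and wt3 and 979, 1057 and 986 CPM in ko1, ko2 and ko3. Every ko library lay above every wt library. The mean was 841 ± 36.1 CPM in wt and 1007 ± 43.0 CPM in ko. The log2 fold change of 0.26 was small (SE 0.12, 95% confidence interval -0.023 to 0.54) and missed the threshold (edgeR adjusted p = 0.333). Without wt1 it was 0.24. Bhlhe40 (NCBI Gene 20893) lies at chr6:108660629-108666925 on the plus strand.

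**Figure D1:**
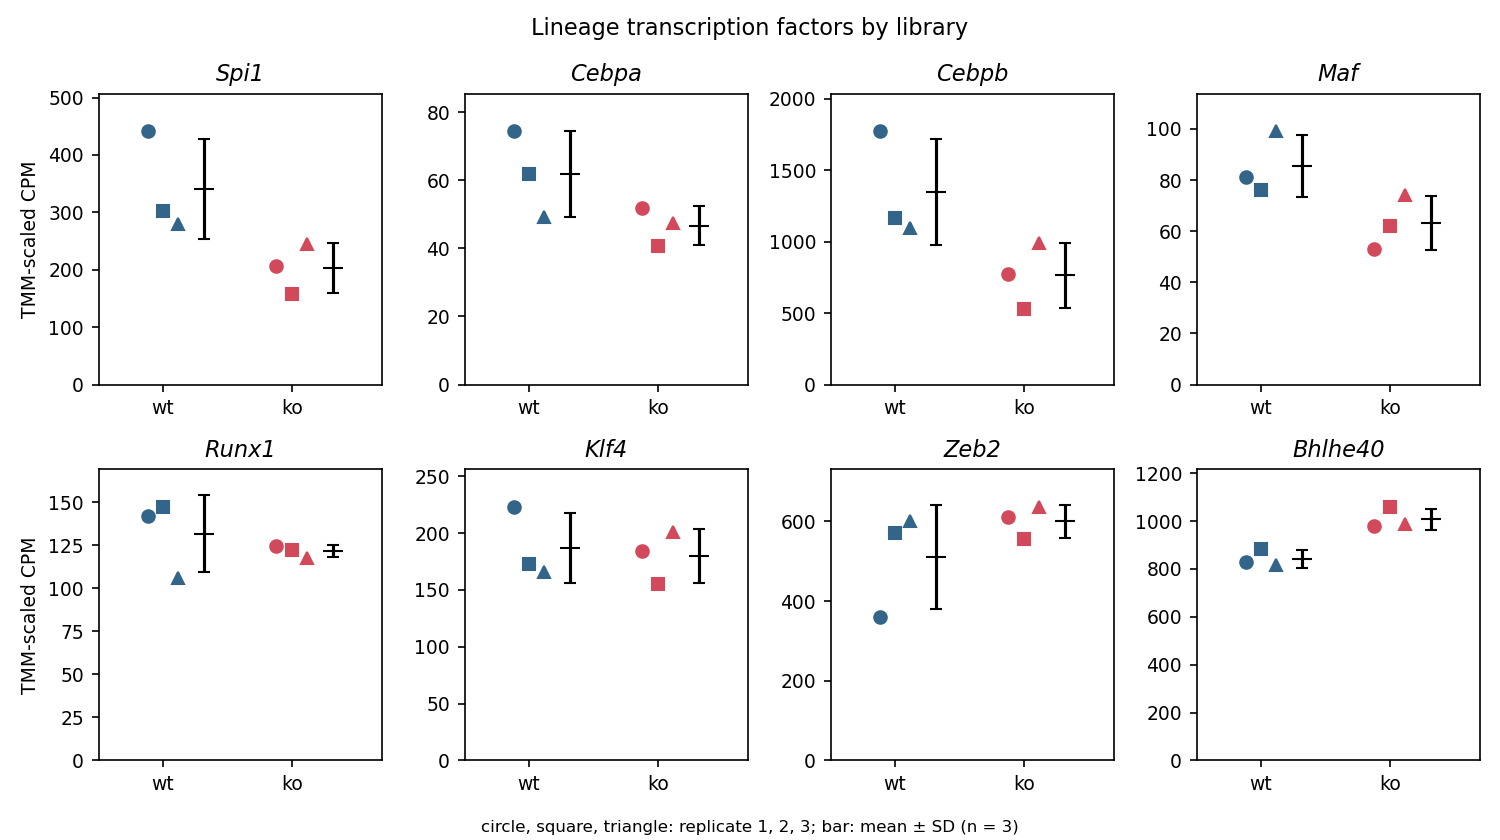
Level of each of the 8 factors in every library, as TMM-scaled CPM, with 1 panel per gene, points for libraries and bars for the group mean and SD (n = 3 each). Spi1, Cebpb and Maf had every ko library below every wt library, Bhlhe40 had every ko library above, and the groups of the other 4 genes overlapped.

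Of the 8 members, 0 passed an adjusted p of 0.05 in the edgeR quasi-likelihood test, as did 0 of all 13884 genes tested (0% called). The unadjusted p was under 0.05 in 2112 genes, among them 3 members with a lower estimate in ko (Spi1, Cebpb and Maf), where 8.31% of all genes tested were called in that direction. In the other direction 0 members were at that level, against 6.90% of all genes. Without wt1 the same 3 members were at that level and lower, against 5.38% of all genes, and 0 were higher, against 6.81%. Scaled to a list of macrophage markers, 0 members were lower at that level, against 0.101% of all genes, and Klf4, Zeb2 and Bhlhe40 were higher, against 29.6%. DESeq2 also called 0 members, while it called 108 of the 8769 genes to which it gave an adjusted p (1.23%), and its smallest adjusted p for a member was 0.0779 for Spi1, followed by 0.0921 for Cebpb. Every ko library was below every wt library in 3 members, against 12.6% of all genes tested, and above in 1 member, against 13.3%. The median log2 fold change was -0.26 over the members, 0.022 over all genes tested and 0.13 over the 1019 transcription factor genes tested, of which 103 had every ko library below and 125 had every ko library above the wt libraries.

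**Figure D2:**
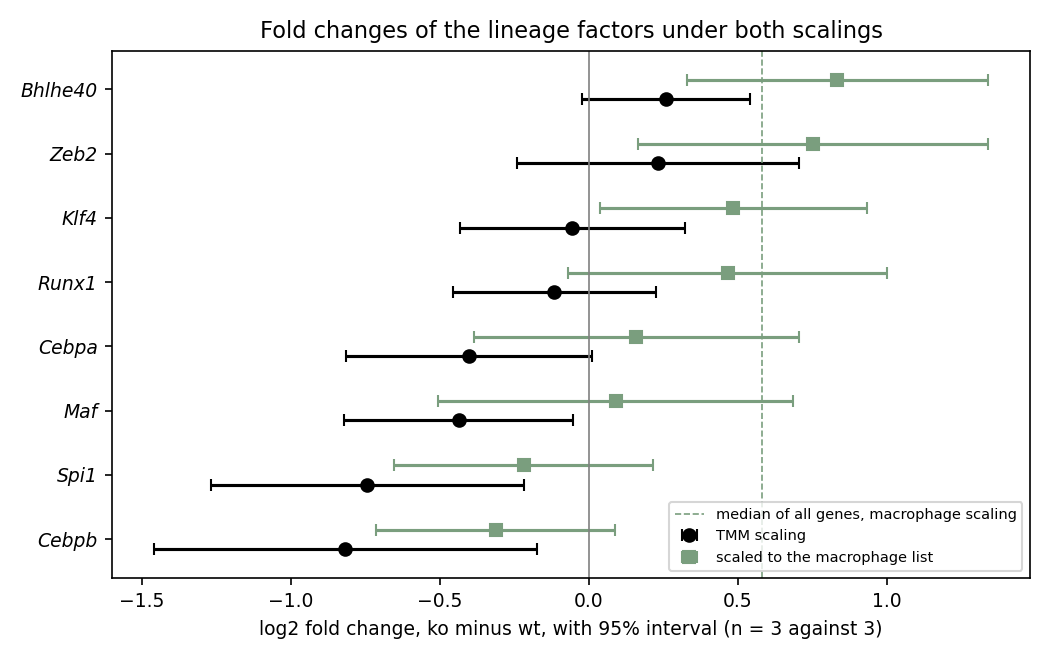
Log2 fold change of ko against wt for each of the 8 factors, with TMM scaling (circles) and scaled to the macrophage list (squares). Points are edgeR estimates and bars their 95% confidence intervals. The dashed line is the median of all genes under the macrophage scaling (0.581). With TMM scaling the estimates run from -0.82 for Cebpb to 0.26 for Bhlhe40, and the intervals of Spi1, Cebpb and Maf lie below 0. Scaled to the macrophage list they run from -0.31 for Cebpb to 0.833 for Bhlhe40. The intervals of Spi1, Cebpb and Maf then include 0, and those of Klf4, Zeb2 and Bhlhe40 lie above 0.

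To compare levels between genes, the deposited FPKM values were used. In wt, Cebpb was at 711 to 1088 FPKM, Bhlhe40 at 248 to 264 FPKM and Spi1 at 172 to 256 FPKM. The latter pair overlapped in wt, whereas in ko the FPKM level of Bhlhe40 (307 to 389) was above that of Spi1 (113 to 148). Cebpb remained the highest in ko, at 399 to 631 FPKM. Zeb2 followed at 35.1 to 61.6 FPKM in wt and 64.1 to 66.9 FPKM in ko. Klf4, Maf, Cebpa and Runx1 were between 14.1 and 27.5 FPKM in all libraries. In wt these 4 neighbours in the order overlapped in level, and in ko Klf4 stood above the other 3, which overlapped. The length implied by the FPKM of Klf4 was 7553 bases, longer than its span of 5324 bases at the position given above. A shorter length would raise its FPKM, so its place in the order depends on the gene model used. Among the 13884 genes tested, the mean FPKM of Cebpb ranked 113 and that of Spi1 ranked 421.

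**Figure D3:**
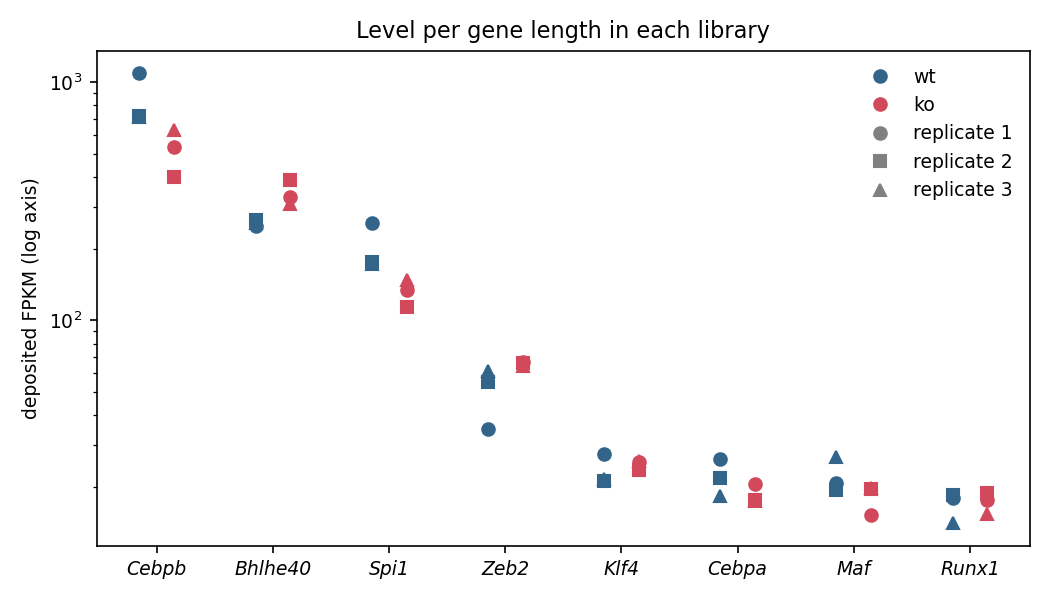
FPKM level of the 8 factors in each library on a log axis, with wt and ko libraries as separate points. Cebpb is highest in both groups, at 399 to 1088 FPKM, and Klf4, Maf, Cebpa and Runx1 lie together between 14.1 and 27.5 FPKM.

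Markers of macrophages and of other cell types differed between the libraries. The 16 macrophage markers, led by Lyz2 and Cd14, summed to 22450 to 28240 CPM in wt and 13340 to 23140 CPM in ko, with the order wt1, wt2, ko3, wt3, ko1 and ko2 from high to low. Of the 15 macrophage markers tested, 15 had a lower estimate in ko and 7 an unadjusted p under 0.05 in edgeR (8.31% of all genes). Marco was at 0 in a wt library. Over all 13884 genes tested, 6656 had a lower and 7228 a higher estimate. The defining marker Csf1r, the receptor for the growth factor of macrophages, was at 1612, 1061 and 1042 CPM in wt and at 732, 547 and 938 CPM in ko. Monocyte markers summed to 10260 to 13530 CPM in wt and 5661 to 9988 CPM in ko, and neutrophil markers to 1893 to 2122 and 840 to 1613 CPM. All 10 monocyte and all 11 neutrophil markers tested had a lower estimate in ko.
In the other direction, the 9 T cell markers in the table summed to 32 to 135 CPM in wt and 105 to 297 CPM in ko, and the 8 NK cell markers to 60.4 to 109 and 90.1 to 214 CPM. Fibroblast markers, led by Col3a1 and Pdgfra, summed to 36.4 to 490.5 CPM in wt, with wt1 at the bottom, and to 353 to 697 CPM in ko. Most of this sum was Col3a1 (19.0 to 426 CPM in wt and 308 to 604 CPM in ko). Of the 11 fibroblast markers, 9 had a higher estimate in ko and 2 a lower one. These were Acta2 (log2 fold change -0.63, every ko library below every wt library) and Tagln (-0.30, groups overlapping). Epithelial markers summed to 35.2 to 137 and 129 to 191 CPM, with Krt19 and Sftpc at 0 in some library, and dendritic cell markers to 429 to 705 and 476 to 644 CPM. Of the 3 epithelial markers tested, 2 had a higher estimate in ko, and Cdh1 was lower (log2 fold change -0.41). B cell markers summed to 7.78 to 44.6 and 16.3 to 68.7 CPM. Endothelial markers summed to 34.5 to 43.2 and 32.9 to 36.9 CPM, with Tek and Emcn at 0 in some library. Immediate early and stress genes summed to 13530 to 17390 and 10580 to 13150 CPM, and of these lists only their sums did not overlap. This sum was led by Dusp1 and Fos. Of the 16 immediate early and stress genes, 8 had a lower and 8 a higher estimate in ko (median log2 fold change -0.061). The median log2 fold change of T cell markers went from 1.26 to 0.904 without wt1, and of NK cell markers from 1.04 to 0.899. That of fibroblast markers went from 1.01 to 0.457 and of epithelial markers from 0.756 to 0.294. The macrophage, monocyte and neutrophil medians went from -0.511, -0.641 and -0.828 to -0.484, -0.458 and -0.823. Higher T cell markers at an unadjusted edgeR p under 0.05 went from 3 to 0 (6.90% and 6.81% of all genes). Of 9 mitochondrially encoded genes, 0 were in the table. The part of these cell type differences in the levels of the 8 factors was not tested.

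The members were therefore also expressed per 1000 counts of the macrophage list, a scaling added after the data were seen for the comparison of single libraries. On this scale Cebpb was at 44.4 to 62.8 in wt and 39.6 to 43.3 in ko, and it was the only member with every ko library below every wt library, a pattern held by 0.475% of all genes tested. Spi1 no longer separated, at 11.5 to 15.6 in wt and 10.6 to 11.9 in ko. The macrophage list includes genes reported as targets of PU.1 or C/EBP, among them its top genes Lyz2 and Cd14. A difference that Spi1 or Cebpb shared with these genes would be reduced on this scale. Klf4 (6.55 to 7.88 in wt and 8.69 to 11.6 in ko), Zeb2 (12.8 to 26.8 and 27.4 to 41.6) and Bhlhe40 (29.3 to 36.3 and 42.6 to 79.2) had every ko library above every wt library, against 30.0% of all genes. Cebpa, Maf and Runx1 overlapped. Scaling to this list raised the median log2 fold change of all genes to 0.581, and the log2 fold changes of the members were then -0.22 for Spi1, -0.31 for Cebpb (95% confidence interval -0.71 to 0.088), 0.16 for Cebpa and 0.089 for Maf. They were 0.467 for Runx1, 0.485 for Klf4, 0.753 for Zeb2 and 0.833 for Bhlhe40, with edgeR adjusted p-values of 0.157 or more for all 8. Relative to the shifted median, the values were -0.80 for Spi1, -0.89 for Cebpb, -0.42 for Cebpa, -0.49 for Maf, -0.11 for Runx1, -0.096 for Klf4, 0.17 for Zeb2 and 0.25 for Bhlhe40.

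**Figure D4:**
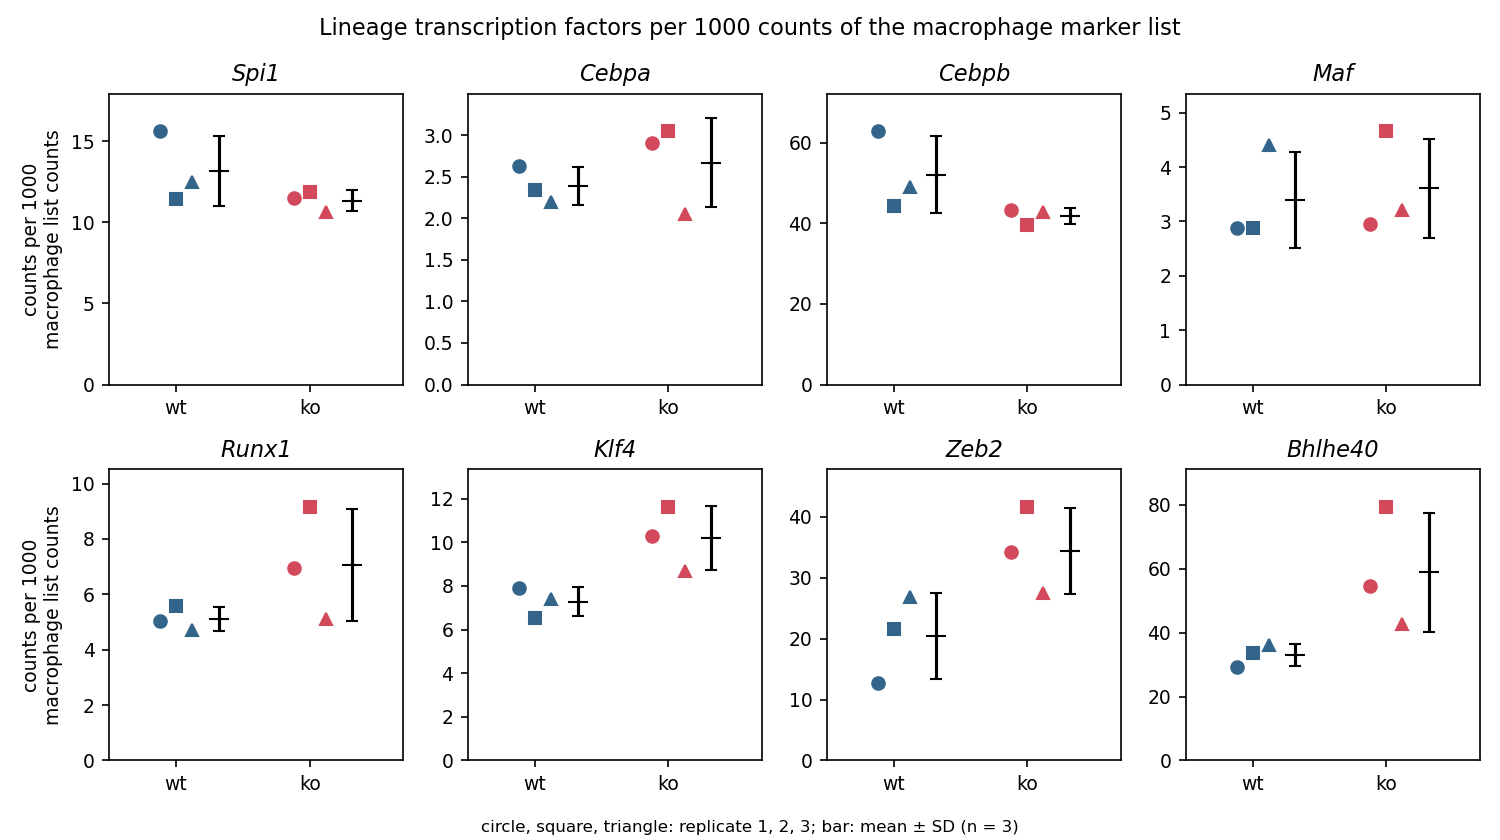
Counts of each of the 8 factors per 1000 counts of the 16 macrophage markers, with 1 panel per gene and points for the 6 libraries. Cebpb is below the wt libraries in every ko library, and Klf4, Zeb2 and Bhlhe40 are above them in every ko library.

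Related factors of the same protein families may occupy the same sites as the members. Of 23 such genes tested, 0 passed the adjusted p, 2 had a lower and 3 a higher estimate in ko at an unadjusted p under 0.05 (8.31% and 6.90% of all genes), and the median log2 fold change was -0.017. Without wt1 these counts were 1 and 4 (5.38% and 6.81% of all genes). Scaled to the macrophage list they were 0 and 10 (0.101% and 29.6%). DESeq2 called 0 of them at an adjusted p under 0.05, and it gave none to Spib, Cebpe and Bhlhe41. Klf6, a zinc finger factor of inflammatory macrophages, was at 1027, 1268 and 1321 CPM in wt and at 1658, 1620 and 1896 CPM in ko, with every ko library above (log2 fold change 0.52, SE 0.16, edgeR adjusted p = 0.328, and 0.41 without wt1). Zeb1, the relative of Zeb2 known from mesenchymal cells, was at 4.58, 14.7 and 16.3 CPM in wt and at 26.6, 36.3 and 19.5 CPM in ko. Every ko library of Zeb1 was above every wt library, and the log2 fold change was 1.21 with all libraries and 0.82 without wt1. Its lowest library, wt1, was also lowest in the fibroblast, T cell and epithelial sums, whereas wt2 was lowest in the NK cell and B cell sums. Its highest library, ko2, was highest in the T cell, NK cell and B cell sums, whereas ko1 was highest in the fibroblast and epithelial sums. The part of these cell types in the level of Zeb1 was not tested. Ets2, the other highly expressed gene of the list besides Klf6, had overlapping groups (log2 fold change -0.35, edgeR adjusted p = 0.356).

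Ratios within a library do not depend on scaling, and 7 pairs of related factors, of which 6 are given, were compared by an exact two-sided permutation test, whose smallest possible p for 3 against 3 is 0.1. The log2 count ratio of Zeb2 to Zeb1 was 6.30, 5.28 and 5.20 in wt and 4.52, 3.93 and 5.02 in ko, a difference of -1.10 with no overlap (exact permutation p = 0.1, adjusted over the 7 pairs p = 0.467), and -0.75 without wt1. Per length, Zeb2 was between 65.7 and 339 times the level of Zeb1 in FPKM. The log2 ratio of Cebpa to Cebpb was -4.58, -4.24 and -4.48 in wt and -3.90, -3.70 and -4.38 in ko, a difference of 0.44 (exact permutation p = 0.2, adjusted p = 0.467), and 0.37 without wt1. In FPKM, Cebpa was at 0.0241 to 0.0442 of the level of Cebpb in all libraries. The differences for the other pairs were -0.87 for Bhlhe40 to Bhlhe41, -0.37 for Spi1 to the interferon regulatory factor Irf8, -0.22 for Runx1 to Runx2 and -0.066 for Klf4 to Klf2. In these 4 pairs the groups overlapped and the adjusted exact permutation p was 0.467, 0.525, 0.56 and 0.7 in that order. Single libraries moved these differences by more than 1.5 times, with Bhlhe40 to Bhlhe41 at -0.42 without wt1, Spi1 to Irf8 at -0.13 without ko2 and Runx1 to Runx2 at -0.082 without wt2 and -0.42 without wt3. Without wt1, Spi1 to Irf8 was at -0.35, Runx1 to Runx2 at -0.15 and Klf4 to Klf2 at -0.0049.

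Among 30 other myeloid lineage factors tested, 7 had a lower and 2 a higher estimate in ko at an unadjusted p under 0.05 (8.31% and 6.90% of all genes), 0 passed the adjusted p in edgeR, and the median log2 fold change was -0.16. Without wt1 these counts were 3 and 3 (5.38% and 6.81% of all genes). Scaled to the macrophage list they were 0 and 8 (0.101% and 29.6%). Those with the smallest p were Id3, an inhibitor of helix-loop-helix factors (log2 fold change -0.82, SE 0.21), Rxra, a nuclear receptor partner (-0.64, SE 0.19), and the adaptor Lmo2 (-0.57). All 3 had every ko library below every wt library, at an edgeR adjusted p of 0.328. DESeq2 called Id3 (adjusted p = 0.0455) and none of the other 29. It gave no adjusted p to Gfi1, Gfi1b, Myb, Gata2, Batf3, Nr1h3, Pparg and Tal1, so these could not be called. Without wt1 the log2 fold changes were -0.97 for Id3, -0.46 for Rxra and -0.42 for Lmo2. The most highly expressed genes of the list, Id2 and Atf3, had log2 fold changes of -0.17 and 0.01 (edgeR adjusted p = 0.481 and 0.969).

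Genes reported elsewhere as targets were grouped by factor. Of 14 targets of PU.1, 14 had a lower estimate in ko, 9 at an unadjusted p under 0.05 (8.31% of all genes) and 10 with every ko library below (12.6%), and the median log2 fold change was -0.55. Without wt1 the 9 became 6 (5.38% of all genes) and the median -0.48. Scaled to the macrophage list, 9 of the 14 were lower and 5 higher, and 1 was lower at that unadjusted level (0.101% of all genes). The median of the targets was then -0.02, or -0.60 relative to the median of all genes. Examples are Mpeg1, a pore-forming protein of phagocytes (log2 fold change -1.03, SE 0.23), the Fc receptor Fcgr1 (-0.71) and the granulocyte growth factor receptor Csf3r (-0.83), whereas the groups overlapped for the lysozyme gene Lyz2 (-0.57) and the lipopolysaccharide co-receptor Cd14 (-0.38). The smallest edgeR adjusted p among these 5 was 0.328, while DESeq2 called Mpeg1 alone of the 14 (adjusted p = 0.00872). Of the PU.1 targets, Csf1r, Itgam, Cd68, Fcgr1, Lyz2 and Cd14 are also on the macrophage marker list and Csf3r is on the neutrophil list. For Cebpa and Cebpb, 11 of 12 targets had a lower estimate, 3 at that unadjusted level (8.31% of all genes), with a median of -0.35. Without wt1 the 3 became 4 (5.38% of all genes) and the median -0.51. Scaled to the macrophage list, 4 were lower and 8 higher, where 12749 of all 13884 genes tested were higher. The median of the targets was then 0.11, or -0.47 relative to the median of all genes. In the unscaled fit, Csf1r was at -0.74 (SE 0.25) and the chitinase-like Chil3 at -0.83 with overlapping groups, while the cytokine Il1b was at -0.32 with an edgeR adjusted p of 0.615. For Klf4, 7 of 9 had a lower estimate and 4 were at that level (8.31% of all genes), with a median of -0.28. Without wt1, 3 were lower and 1 higher at that level (5.38% and 6.81% of all genes). Scaled to the macrophage list, 4 had a lower and 5 a higher estimate. The median of the targets was then 0.17, or -0.41 relative to the median of all genes. The Klf4 list was led by thrombomodulin, Thbd (-0.98, SE 0.21), the monocyte antigen Ly6c2 (-0.75) and the hemoglobin scavenger receptor Cd163 (-1.05, at 41 to 129 counts), while arginase 1, Arg1, was at -0.17 with overlapping groups. Its Mrc1 is also a macrophage marker, and Ly6c2 and Chil3 are monocyte markers. Among the C/EBP targets, Csf1r, Cd14 and Msr1 are macrophage markers, Chil3 is a monocyte marker and Csf3r a neutrophil marker. Csf1r, Cd14 and Csf3r are PU.1 targets too, and Arg1 and Chil3 are on both the C/EBP and Klf4 lists. The lists are therefore not independent. Targets that are also macrophage markers supply part of the counts used for scaling, so their scaled values are drawn towards 0 by construction. The scaled tallies therefore cannot show whether the targets follow their factors. In each of these lists 0 genes passed the adjusted p in edgeR and 0 had a higher estimate at an unadjusted p under 0.05 with all 6 libraries. DESeq2 called 0 of the C/EBP targets and, of the Klf4 targets, Thbd alone (adjusted p = 0.0129). The Klf4 targets Retnla, Pparg, Cd163 and Nos3 were given no adjusted p by DESeq2 and could not be called. The tallies without wt1, scaled to the macrophage list and by DESeq2 were added after the data were seen. The lists were drawn from general knowledge of the factors, and no binding was measured.

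For each member, the most similar gene among 60 lineage and related factors was found as the smallest root mean square difference of log2 CPM, centred over the 6 libraries. For Spi1 it was Rxra (0.083) and then Cebpb (0.093), for Cebpb it was Spi1 (0.093), and for Zeb2 it was the hypoxia factor Hif1a (0.11). For Cebpa, Maf, Runx1, Klf4 and Bhlhe40 the nearest genes were Etv6 (0.106), Fli1 (0.127), Mafg (0.16), Cbfb (0.122) and Runx2 (0.133). The median difference over the 60 candidates was 0.316 to 0.52, depending on the member.

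Several members share genomic sequence with another gene, and the use of strand in the counting is not given in the sources used here. The gene on the opposite strand of Cebpb, Tmem189, overlaps it by 908 bases, and under its NCBI Gene number the table lists between 7652 and 11399 counts per library. Zeb2 overlaps its antisense gene Zeb2os by 3381 bases, and Zeb2os had 806 to 1014 counts. Bhlhe40 overlaps 0610040F04Rik by 306 bases, which had 31 to 62 counts. Cebpa, Maf and Runx1 each overlap an antisense gene that was not analysed here, and Spi1 and Klf4 overlap none. The shares of these reads that belong to either strand cannot be told apart.

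**Figure D5:**
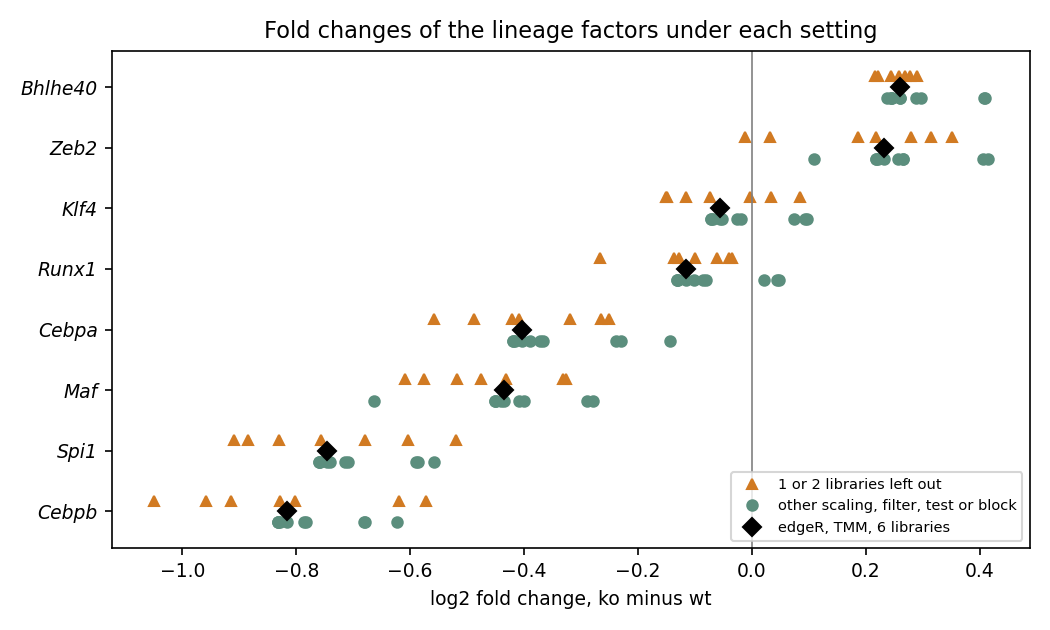
Log2 fold change of each of the 8 factors under the processing alternatives, with 1 point per setting and the reported value marked. The scaling to the macrophage list is not shown. Spi1 and Cebpb lie below 0 and Bhlhe40 above 0 under every setting shown. The points of Klf4, Runx1 and Zeb2 lie on both sides of 0, with Zeb2 below 0 only without wt1 and ko3 (-0.011).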

How the data were processed

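RNA sequencing of 6 mouse libraries, 3 labelled wt and 3 labelled ko, was analysed. The authors deposited raw whole-number read counts for each gene together with FPKM values, which equal the counts divided by gene length and library total. The submitters' processing notes name mm10, and the aligner, counting tool and annotation are not given in the sources used here. Counts were fitted with edgeR 4.0.16 in R 4.3.3 (filterByExpr, TMM, glmQLFit, glmQLFTest), with Benjamini-Hochberg adjustment over 13884 genes and a threshold of 0.05. The SE is the absolute log2 fold change over the square root of F. log2 CPM used a prior count of 2, and ratios a pseudocount of 0.5. The fit was tested on simulated data. No tool for differential expression of the RNA sequencing is named in the study's methods, so the test was chosen to suit counts.

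Alternatives were other scalings and filters, DESeq2 1.42.0, limma 3.58.1 (voom with quality weights, and log2 FPKM plus 1 or 0.1), the replicate number as a block, and libraries left out. Named genes were Npm1, the members, the 3 genes of smallest p and the 2 of highest FPKM in each list, the ratio pairs, the most similar genes and the 2 top markers per cell type. A gene of these lists, and the results that need it, are not reported here. Some further genes were named after their values were seen. The members and lists were chosen with earlier results of these data known. Positions are from GENCODE on GRCm38. No libraries were duplicates, since their counts differed by far more than sampling noise. Same-numbered libraries are not stated to be paired.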

Additional observations from a re-analysis of the deposited data

How the results depend on the processing

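The number of genes past an adjusted p of 0.05 was 0 in edgeR and in the limma alternatives and 108 in DESeq2, and 0 members passed under any alternative. Spi1, Cebpb and Bhlhe40 kept their direction under every alternative. Runx1 was at 0.021 with voom quality weights, 0.045 and 0.048 on log2 FPKM plus 1 and plus 0.1, and 0.467 when scaled to the macrophage list. Klf4 was at 0.074, 0.093, 0.097 and 0.485 under these 4 settings, and between -0.15 and 0.085 with single libraries left out, above 0 without ko2 or wt1. Scaled to the macrophage list, Cebpa was at 0.16 and Maf at 0.089, and over the other alternatives Cebpa ran from -0.559 (without wt3) to -0.144 (voom quality weights) and Maf from -0.663 (voom quality weights) to -0.278 (log2 FPKM). Of 18 alternatives, Bhlhe40 had an unadjusted p under 0.05 in 7 and Cebpa in 3. Zeb2 was at -0.011 without wt1 and ko3, and at 0.032 to 0.352 with single libraries left out. With single libraries left out, the log2 ratio difference of Klf4 to Klf2 ran from -0.165 to 0.055 (without ko3). The cause of these changes was not tested. Without ko1 or without ko2, Spi1 was the only member with an unadjusted p under 0.05 in edgeR. The 2112 genes at that unadjusted level became 775 and 669 in these fits, 3720 with voom quality weights, 3290 without wt1 and ko3 and 4124 scaled to the macrophage list.

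With the replicate number as a block, edgeR called 0 genes and 0 members, with 1606 genes and 3 members at an unadjusted p under 0.05. Deviations of same-numbered libraries correlated at -0.24, 0.061 and -0.34, and 0 of 6 libraries correlated best with their own number, so the numbers were not treated as a pairing. With 3 libraries per group, a member would need a larger change or less spread to pass over all genes tested.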
